A study of Rattus norvegicus with 7 samples.

Results

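The clathrin adaptor complex AP-1 was examined through the transcripts of its subunits, Ap1s1, Ap1s2, Ap1s3, Ap1b1, Ap1g1, Ap1m1 and Ap1m2, in differentiating rat oligodendrocyte progenitor cells. The subunits were taken by gene symbol from the deposited table of 32852 genes, where 6 of the 7 were matched, and Ap1g1 was not analysed here. Of those 6, 5 passed the filter on low values (a mean normalised count of at least 10), as did 18225 genes in all. The set was built around Ap1s3 because the authors' deposited comparison marks it as raised after the siRNA, so the siRNA values of Ap1s3 are a description with no test. The other subunits entered by family membership.

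The cells were wild-type progenitors isolated from rat brain at postnatal day 7, transfected with an siRNA and moved to differentiating medium in the same step, where they stayed for 4 to 5 days. In 3 libraries the siRNA targeted RNLTR12-int, which belongs to a rat endogenous retrovirus, and in 4 libraries it was a control siRNA. All libraries share the lipofection and the differentiating medium, no untransfected cells were analysed here, and the labels call the libraries biological replicates without naming an animal or culture, so p-values measure the spread between libraries, which may be partly technical. The comparison asks which AP-1 transcripts differ when RNLTR12-int is targeted, and RNLTR12-int transcripts were not analysed here.

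AP-1 is a coat adaptor of the trans-Golgi network and of endosomes. It is recruited to membranes by the GTPase ARF1, binds sorting signals in the cytosolic tails of cargo proteins and links them to clathrin, so that cargo such as the mannose 6-phosphate receptors is packed into vesicles. Each complex holds a gamma subunit (Ap1g1), a beta subunit (Ap1b1), a mu subunit (Ap1m1 in most cells, Ap1m2 in polarised epithelia) and a small sigma subunit, which is made by Ap1s1, Ap1s2 or Ap1s3. The sigma subunits are alternatives for the same place in the complex. Mutations of human AP1S1 and AP1S2 cause neurodevelopmental syndromes, and human AP1S3 has been linked to inflammatory skin disease. In oligodendrocytes, vesicle traffic from the Golgi and endosomes delivers myelin proteins to the growing sheath.

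The promoters of the 3 sigma genes are shown because these paralogs are alternatives in the complex. Ap1s3 was chosen on its rise after the siRNA, and differences between the 3 transcripts were not tested. They are from RefSeq on the rat build GRCr8 and run from 250 bases before to 50 bases after the transcript start, on the strand of the gene, with base 251 as the first transcribed base. The deposited values were made on Rnor_6.0, and no coordinates were joined between the builds. Capitals mark matches, on either strand, to the motifs given after the sequences. Ap1s3 lies at chr9:88458150-88458449 (minus strand), Ap1s1 at chr12:25261786-25262085 (plus strand) and Ap1s2 at chrX:34230635-34230934 (minus strand).
Ap1s3: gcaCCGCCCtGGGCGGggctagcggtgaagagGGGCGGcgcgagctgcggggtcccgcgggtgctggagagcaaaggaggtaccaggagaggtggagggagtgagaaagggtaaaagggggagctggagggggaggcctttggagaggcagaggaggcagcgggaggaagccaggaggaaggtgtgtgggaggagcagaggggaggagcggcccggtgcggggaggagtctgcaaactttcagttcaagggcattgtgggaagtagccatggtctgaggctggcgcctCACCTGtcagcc
Ap1s1: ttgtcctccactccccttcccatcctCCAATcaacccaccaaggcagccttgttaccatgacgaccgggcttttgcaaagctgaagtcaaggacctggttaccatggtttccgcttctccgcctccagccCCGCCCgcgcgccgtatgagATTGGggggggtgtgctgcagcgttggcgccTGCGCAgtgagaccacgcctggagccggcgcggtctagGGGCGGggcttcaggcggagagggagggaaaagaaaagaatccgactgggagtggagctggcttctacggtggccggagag
Ap1s2: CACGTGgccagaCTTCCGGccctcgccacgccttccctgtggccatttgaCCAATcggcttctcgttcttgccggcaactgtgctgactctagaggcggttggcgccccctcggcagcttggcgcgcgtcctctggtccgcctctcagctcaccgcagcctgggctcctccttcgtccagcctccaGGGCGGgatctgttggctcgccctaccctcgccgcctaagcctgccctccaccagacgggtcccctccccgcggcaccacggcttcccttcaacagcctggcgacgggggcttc

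All 7 subunits have a promoter in the RefSeq table. The 3 sigma promoters were GC-rich, at 66.3% for Ap1s3, 63% for Ap1s1 and 68.7% for Ap1s2, against a median of 51.7% over 33469 rat promoters of the same length. Ap1s3 had 14 CpG dinucleotides, Ap1s1 had 21 and Ap1s2 had 26, against a median of 7. The GC box GGGCGG was matched 3 times in Ap1s3, at bases 4, 11 and 33, and it was present in 6 of the 7 subunit promoters and in 33.1% of all promoters. The CCAAT box (CCAAT) was matched in Ap1s1, at bases 27 and 151, and in Ap1s2, at base 51, with no match in the Ap1s3 window. It was also matched in Ap1m1, and 37.5% of all promoters hold it.

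Other matches differed among the 3 sigma promoters, but some were shared with other subunits. Ap1s1 held the core TGCGCA of the nuclear respiratory factor motif at base 182 (7.24% of all promoters), and Ap1m1 held it too. Ap1s2 held the ETS motif CCGGAAG at base 13 (8.75%), as did Ap1b1 and Ap1m1, and the E box CACGTG at base 1 (6.42%). Ap1s3 held the E box CACCTG at base 289, within the transcribed part (18.8% of all promoters). That E box was present in 4 of the 7 subunit promoters, also in Ap1b1, Ap1g1 and Ap1m2, and Ap1m2 held it 4 times. The TATA box TATAAA (14.2% of all promoters), the element TGANTCA (7.33%) and the element TGACGTCA (1.83%) were not matched in any of the 7 windows. No match overlapped another in the sequences shown.

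Ap1s3 (ENSRNOG00000049873) was the subunit with the large difference, about 3-fold higher after the siRNA, while Ap1s1, Ap1s2, Ap1b1 and Ap1m1 had mean levels 0.958 to 1.21 times those in controls. Ap1s3 had normalised counts of 208, 437 and 389 in siRNLTR12-int replicates 1 to 3, against 152, 47.2, 136 and 88.7 in control replicates 1 to 4. The lowest siRNLTR12-int library, replicate 1, stood above the highest control, also a replicate 1, and control replicate 2 was the lowest of all. The means were 345 ± 121 (SD, n = 3) after the siRNA and 106 ± 47.6 (SD, n = 4) in controls, a ratio of 3.25. These levels rest on 228, 345 and 483 reads in the siRNLTR12-int libraries and on 159, 65, 158 and 50 reads in the controls. Exact 95% Poisson intervals, which cover counting error only, ran from 182 to 237 normalised counts in siRNLTR12-int replicate 1. In control replicate 1 they ran from 129 to 178. These are the nearest libraries of the groups. Because Ap1s3 was chosen on this contrast, the gap between them carries no test.

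On the log2(normalised count + 1) scale the difference of Ap1s3 was 1.75 with a standard error of 0.46. The authors' deposited table gave a log2 fold change of 1.70 with a standard error of 0.46 and an adjusted p of 0.036 (DESeq2), which is the value that chose the gene. Of the 18747 genes with an adjusted p there, 72 (0.384%) were higher and 69 (0.368%) lower at an adjusted p under 0.05. The authors marked 38 of them UP, Ap1s3 among them, and 63 DOWN. The marked genes had absolute log2 fold changes of 1.03 or more, and the 40 left unmarked had 0.97 or less. Ap1s3 was the AP-1 subunit with an adjusted p under 0.05 in the authors' deposited table, and the nearest above 0.05 was Ap1s1 at 0.915 (DESeq2). The limma fit called 0 of 18225 genes (0%), so Ap1s3 was not called by it, and edgeR also called 0. At an unadjusted p under 0.05 limma had 606 higher genes (3.33%) and 543 lower ones (2.98%), and edgeR had 1178 in either direction. When 1 library was left out, the DESeq2 call of Ap1s3 on the recovered reads was lost without control replicate 4 (adjusted p = 0.208), without siRNLTR12-int replicate 2 (adjusted p = 0.644) and without siRNLTR12-int replicate 3 (adjusted p = 0.555), while its log2 fold change stayed between 1.45 and 1.96.

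**Figure D1:**
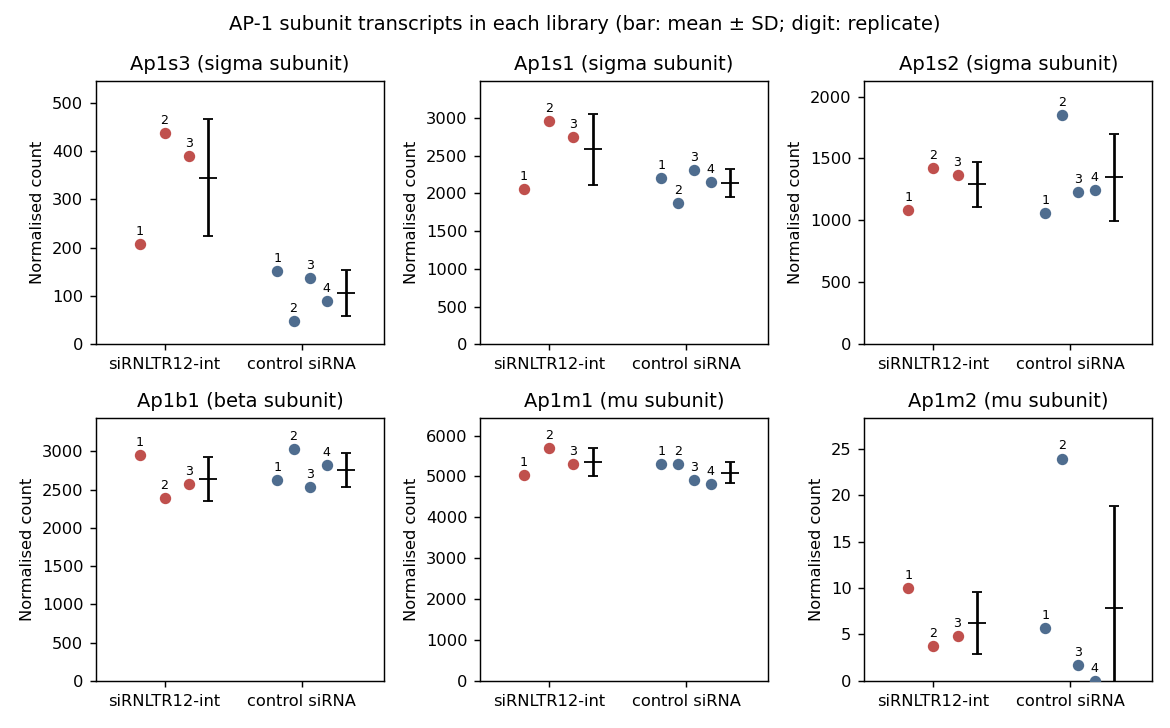
Normalised counts (vertical axis, from 0) of the 6 AP-1 subunits in the siRNLTR12-int (left, n = 3) and control (right, n = 4) libraries, 1 point per library with its replicate number and a bar for the mean ± SD, which is cut at 0 for Ap1m2. Ap1s3 shows 208 to 437 after the siRNA and 47.2 to 152 in controls, and in the other panels the groups overlap.

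The other sigma subunits overlapped between the groups. Ap1s1 (ENSRNOG00000001415), the widely expressed sigma 1A chain, had 2056, 2956 and 2749 normalised counts in siRNLTR12-int replicates 1 to 3, against 2205, 1878, 2314 and 2150.1 in control replicates 1 to 4. SiRNLTR12-int replicates 2 and 3 stood above all controls and replicate 1 stood within the control range. The means were 2587 ± 472 in siRNLTR12-int libraries and 2137 ± 185 in controls (SD, n = 3 and 4), and the log2 difference was 0.26, with a 95% interval from -0.08 to 0.61 and an adjusted p of 0.875 (limma). That interval allows a change between 0.943-fold and 1.53-fold.

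Ap1s2 (ENSRNOG00000038686), the X-linked sigma 1B chain, had 1081, 1425 and 1365 normalised counts in siRNLTR12-int replicates 1 to 3, against 1061, 1855, 1228 and 1242 in control replicates 1 to 4. Control replicate 2, the lowest library for Ap1s3, was the highest for Ap1s2, and the remaining controls lay within or just below the siRNLTR12-int range. The means were 1290.5 ± 184 in siRNLTR12-int libraries and 1346 ± 349 in controls (SD, n = 3 and 4), and the log2 difference was -0.04, with a 95% interval from -0.52 to 0.44 and an adjusted p of 0.996 (limma). Without control replicate 2 the log2 difference of Ap1s2 was 0.13.

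The balance among the sigma transcripts shifted with Ap1s3. The ratio of 2 genes within a library does not depend on the size factor, and gene length cancels when the same ratio is compared between libraries. Ap1s3 had 10.1, 14.8 and 14.2 reads per 100 reads of Ap1s1 in siRNLTR12-int replicates 1 to 3, against 6.90, 2.51, 5.88 and 4.13 in control replicates 1 to 4. Per 100 reads of Ap1s2, Ap1s3 had 19.3, 30.6 and 28.5 reads in siRNLTR12-int replicates 1 to 3, against 14.3, 2.54, 11.1 and 7.14 in control replicates 1 to 4. For both ratios the 3 siRNLTR12-int libraries stood above the 4 controls, with log2 differences of 1.50 and 1.81, and they carry no test because Ap1s3 was chosen on this contrast. The ratio of Ap1s1 to Ap1s2, which does not involve Ap1s3, was 200 ± 8.72 (SD, n = 3) reads per 100 after the siRNA and 168 ± 46.5 (SD, n = 4) in controls, and the groups overlapped.

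**Figure D2:**
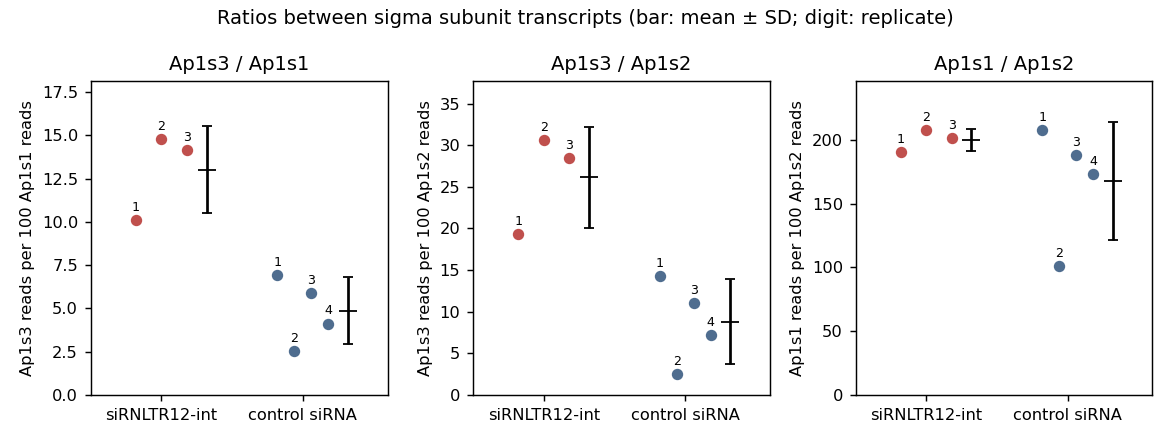
Reads of the first gene per 100 reads of the second (vertical axes, from 0) for the 3 pairs of sigma subunits, by library, with siRNLTR12-int on the left (n = 3) and control on the right (n = 4), bars giving the mean ± SD. Ap1s3 per 100 Ap1s1 reads lies between 10.1 and 14.8 after the siRNA and between 2.51 and 6.90 in controls, while the groups overlap for Ap1s1 per 100 Ap1s2 reads.

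Ap1b1 (ENSRNOG00000008786), the beta chain that binds clathrin, had 2951, 2386 and 2576 normalised counts in siRNLTR12-int replicates 1 to 3, against 2625, 3035, 2531 and 2817 in control replicates 1 to 4. Its log2 difference was -0.06 with a 95% interval from -0.33 to 0.20 (limma adjusted p = 0.984), and the groups overlapped. RefSeq also lists a pseudogene, Ap1b1-ps1, and the beta chain of AP-2 (Ap2b1) is a close relative, so reads shared among them may have been divided in a way that the sources used here do not give.

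Ap1m1 (ENSRNOG00000014454), the mu chain that reads tyrosine-based sorting signals, had 5045, 5703 and 5314 normalised counts in siRNLTR12-int replicates 1 to 3, against 5306, 5308, 4908 and 4825 in control replicates 1 to 4. It varied least of the 6 subunits, with an SD of 6.18% of the mean after the siRNA and 5.04% in controls. Its log2 difference was 0.07 with a 95% interval from -0.13 to 0.28 (limma adjusted p = 0.978), which allows a change between 0.911-fold and 1.22-fold. Ap1s3, in contrast, had an SD of 35.0% of the mean after the siRNA and 44.9% in controls.

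Ap1m2 (ENSRNOG00000043093), the mu chain of polarised epithelia, was near the limit of detection and was not tested. It had 11, 3 and 6 reads in siRNLTR12-int replicates 1 to 3, against 6, 33, 2 and 0 reads in control replicates 1 to 4. Control replicate 2 held more reads of Ap1m2 than all 3 siRNLTR12-int libraries together, and the count of 0 in control replicate 4 allows a level of up to 5.32 normalised counts (3 reads). Normalised counts were 3.80 to 10.0 after the siRNA and 0 to 23.9 in controls. Of 16 epithelial markers, 8 had a mean of at least 10, their summed level was 375 to 545 normalised counts after the siRNA and 467 to 719 in controls, and their means ran from 0.507 for Krt19 to 114 for Grhl2. Control replicate 2 had the lowest summed level of the controls, at 467. The part of epithelial cells in the Ap1m2 reads was not tested.

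Among the 5 subunits tested, 3 had a positive and 2 a negative log2 difference, with a median of 0.07, beside a median of 0.01 over all genes tested. In 1 of them, Ap1s3, every siRNLTR12-int library stood above every control, a pattern seen in 4.09% of the genes tested. No subunit had all siRNLTR12-int libraries below all controls (3.59% of the genes tested).

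The cultures differed in cell makeup, and the difference cut across the siRNA groups. Libraries held 22523873 to 61803693 recovered reads. Markers of the oligodendrocyte lineage were abundant (progenitor markers summed to 292859 to 482539 normalised counts after the siRNA and 279439 to 419636 in controls). All 12 astrocyte markers had a count above 0 in every library, as did the 11 microglia markers with a row, so this threshold does not separate cell types. Gfap, the astrocyte intermediate filament, had 306397, 19440 and 20478 normalised counts in siRNLTR12-int replicates 1 to 3, against 262591, 224537, 27204 and 44392 in control replicates 1 to 4. SiRNLTR12-int replicate 1 and control replicates 1 and 2 were thus rich in astrocyte transcripts, and the other 4 libraries were poor in them, a split that was known from earlier results of these data. In bulk libraries a change in the number of cells of a type and a change in RNA per cell cannot be told apart.

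Ap1s3 was higher after the siRNA within both kinds of culture. This had to be so, since every siRNLTR12-int library stood above every control for this chosen gene, and the split carries no test. In the 4 libraries low in astrocyte markers it averaged 413 normalised counts after the siRNA and 112 in controls, with a log2 difference of 1.90 (n = 2 each). In the libraries high in astrocyte markers it had 208 normalised counts in the lone siRNLTR12-int library, against 152 and 47.2 in the controls, a log2 difference of 1.29. With the astrocyte level as a covariate the log2 difference was 1.70.

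In the libraries low in astrocyte markers Ap1s1 had 2956 and 2749 normalised counts in siRNLTR12-int replicates 2 and 3, against 2314 and 2150.1 in control replicates 3 and 4, and there it rose by a log2 difference of 0.35 (limma adjusted p = 0.0482, 95% interval 0.16 to 0.55). In that fit 4.78% of 17947 genes were called higher and 3.1% lower, and Ap1s1 was 1 of 4 AP-1 subunits besides Ap1s3 tested there. In the libraries high in astrocyte markers the log2 difference of Ap1s1 was 0.01, with a lone siRNLTR12-int library, and the difference between the kinds of culture was not tested. Ap1m1 and Ap1s2 had log2 differences of 0.18 and 0.18 in the low libraries and did not pass (limma adjusted p = 0.194 and 0.245). In the high libraries their log2 differences were -0.07 and -0.38, again with a lone siRNLTR12-int library.

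Myelin transcripts were lower in the group where Ap1s3 was higher. The summed level of 12 myelin genes was 90419, 76288 and 68722 normalised counts in siRNLTR12-int replicates 1 to 3, against 196832, 957022, 215759 and 290939 in control replicates 1 to 4. All 12 had negative log2 differences, 0 were called by limma in all libraries, and 7 were lower at an adjusted p under 0.05 in the authors' deposited table (0.368% of all genes there). In the libraries low in astrocyte markers limma called all 12 lower (3.1% of all genes). Among the controls, replicate 2 had the lowest Ap1s3 level and the highest sum of myelin genes. Mbp, myelin basic protein, had 32168, 18730 and 15076 normalised counts in siRNLTR12-int replicates 1 to 3, against 80170, 401821, 78977 and 109426 in control replicates 1 to 4. Microglia markers summed to 18513, 2618 and 2643 normalised counts in siRNLTR12-int replicates 1 to 3, against 16266, 5693, 1817 and 2406 in control replicates 1 to 4. The highest Ap1s3 levels, in siRNLTR12-int replicates 2 and 3, thus stood in libraries with few microglia and astrocyte transcripts. The part of cell makeup in the Ap1s3 levels beyond these values was not tested.

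**Figure D3:**
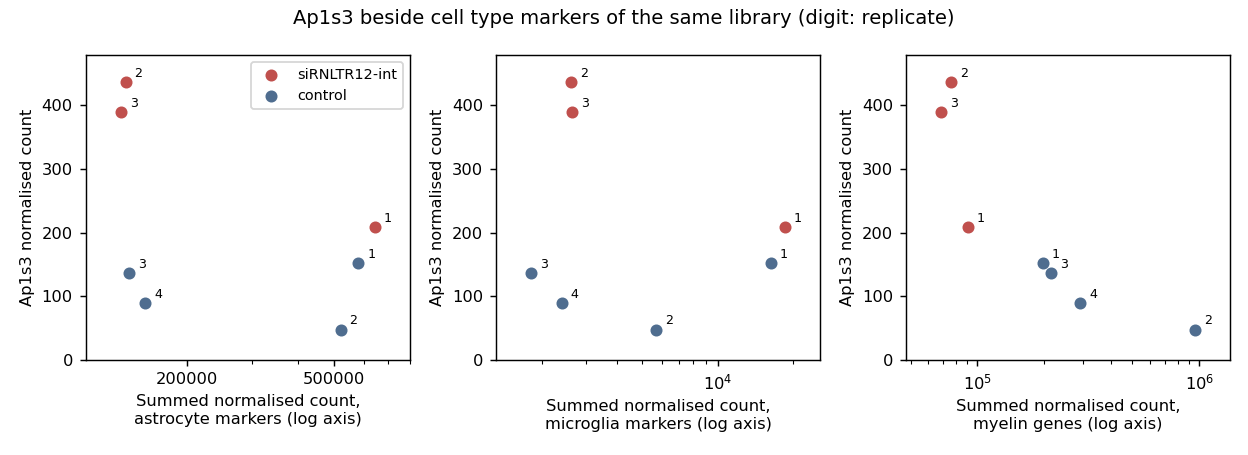
Normalised counts of Ap1s3 (vertical axis, from 0) against the summed normalised counts (log axis) of astrocyte markers, microglia markers and myelin genes in the same library, for siRNLTR12-int (n = 3) and control (n = 4), with replicate numbers. Control replicate 2 joins the lowest Ap1s3 level, 47.2, to the highest myelin sum, 957022, and each siRNLTR12-int library lies above the controls in Ap1s3 and below them in myelin genes.

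The partners that bring AP-1 to membranes gave no call, and limma called 0 of all 18225 genes. Of 20 listed accessory and recruitment genes, 18 were tested, 11 with positive and 7 with negative log2 differences and a median of 0.02, and 0 were called by limma or had an adjusted p under 0.05 in the authors' deposited table, beside 0.384% higher and 0.368% lower of all its genes with an adjusted p. Without adjustment, 1 of them was lower in limma (p under 0.05) and 0 were higher, beside 2.98% lower and 3.33% higher of all genes tested. Arf3, a close relative of Arf1, was listed at 0 in every library. Whether the Arf3 transcript was absent or its reads were not assigned was not tested. Scyl2, a clathrin-binding pseudokinase, had 1989 ± 66.7 normalised counts after the siRNA and 2316 ± 127 in controls (SD, n = 3 and 4). It differed by -0.22 in log2 (limma adjusted p = 0.772). All siRNLTR12-int libraries lay below all controls for Scyl2, a pattern seen in 3.59% of all genes tested. Ap1g2, the gamma 2 chain related to Ap1g1, had 133 ± 56.8 normalised counts after the siRNA and 156 ± 21.6 in controls (SD, n = 3 and 4), differing by -0.30 in log2 (limma adjusted p = 0.956).

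The other adaptor complexes gave no call, and limma called 0 of all 18225 genes, so Ap1s3 was not called by it either. All 5 AP-2 subunits, which serve endocytosis at the plasma membrane, had log2 differences between -0.14 and 0.03, led by Ap2a2 at -0.14 and Ap2m1 at 0.03 (limma adjusted p = 0.975 and 0.994). Of the 7 AP-3 subunits, which sort cargo to lysosome-related organelles, 5 had negative values, and Ap3s2, a sigma chain, had 362 ± 15.8 normalised counts after the siRNA and 477 ± 52.3 in controls (SD, n = 3 and 4). All siRNLTR12-int libraries lay below all controls for Ap3s2. They lay above all controls for Ap3s1, another sigma chain, at 778 ± 22.6 normalised counts after the siRNA and 712 ± 49.9 in controls (SD, n = 3 and 4). Over all genes tested, 3.59% had the lower pattern and 4.09% the higher one. The log2 differences were -0.39 for Ap3s2 and -0.17 for Ap3m1 (limma adjusted p = 0.708 and 0.906). The 11 genes of AP-4 and AP-5 ranged from -0.19 (Ap4e1) to 0.15 (Spg11), with limma adjusted p = 0.903 and 0.939. Of these lists 0 members were called by limma or had an adjusted p under 0.05 in the authors' deposited comparison. That comparison had 0.384% of all its genes with an adjusted p higher and 0.368% lower at that threshold. Few calls could be expected in lists this short, so the counts of 0 draw no contrast with Ap1s3. Without adjustment Ap3s2, which was lower, was the only member of these lists with a limma p under 0.05. Of all genes tested, 2.98% were lower and 3.33% higher at that threshold.

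**Figure D4:**
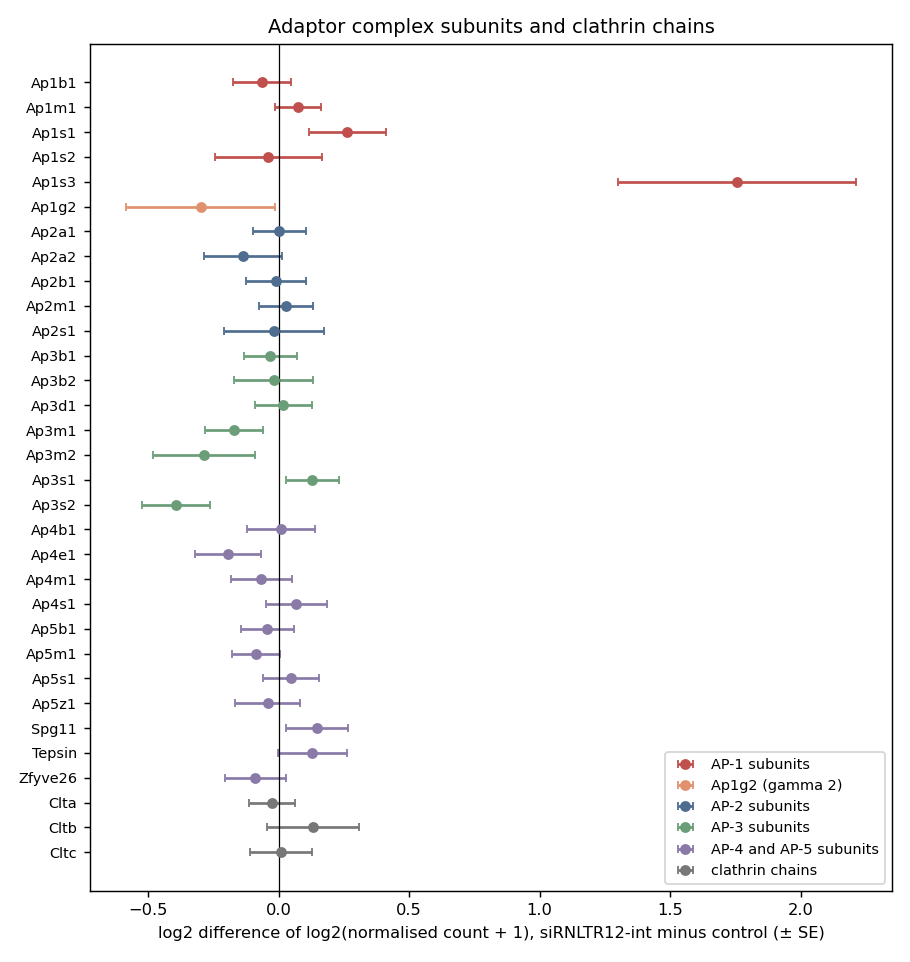
Log2 differences of log2(normalised count + 1), siRNLTR12-int minus control (horizontal axis, ± SE), for the tested subunits of AP-1 to AP-5, Ap1g2 and the clathrin chains, each point from the fit over 18225 genes. Ap1s3 stands at 1.75, and all other points lie between -0.39 and 0.26.

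Golgi adaptors of the GGA and epsin-related group and the clathrin machinery were likewise not called in the fit of all libraries. That fit called 0 of 18225 genes. Gga2, an ARF-dependent adaptor for the mannose 6-phosphate receptors, had 1273 ± 276 normalised counts after the siRNA and 989 ± 93.1 in controls (SD, n = 3 and 4), differing by 0.35 in log2 with groups that overlapped (limma adjusted p = 0.825), and Clint1, an epsin-related partner of AP-1, differed by 0.09 (limma adjusted p = 0.956). Of 15 genes of the clathrin coat and its uncoating, 9 were positive and 6 negative, with a median of 0.02. The endophilin Sh3gl2 had 934 ± 47.3 normalised counts after the siRNA and 705 ± 98.2 in controls (SD, n = 3 and 4), differing by 0.41 in log2 (limma adjusted p = 0.701). Its siRNLTR12-int libraries all lay above its controls, a pattern seen in 4.09% of all genes tested. The dynamin Dnm1 differed by 0.62 in log2 and its groups overlapped (limma adjusted p = 0.893). Clathrin heavy chain (Cltc) differed by 0.01. In the libraries low in astrocyte markers (n = 2 each) limma called 1 of the 7 Golgi adaptors higher. There it called 2 of the 15 clathrin genes higher, Dnm1 among them (limma adjusted p = 0.0333), and 1 lower. The shares over all genes were 4.78% higher and 3.1% lower.

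Cargo proteins and sorting receptors gave no call either in the fit of all libraries, which called 0 of 18225 genes. Of 19 listed, 16 were tested, 7 positive and 9 negative, with a median of -0.08. In 3 of these 16, all siRNLTR12-int libraries lay below all controls, a larger share than the 3.59% of all genes tested. The excess was not tested. Vamp7, a fusion protein of late endosomes and lysosomes, had 566 ± 86.0 normalised counts after the siRNA and 833 ± 122 in controls (SD, n = 3 and 4), differing by -0.56 in log2 (limma adjusted p = 0.662), and Cpd, a carboxypeptidase of the trans-Golgi network, had 6203 ± 246 after the siRNA and 8374 ± 1312 in controls (SD, n = 3 and 4), differing by -0.42 in log2 (limma adjusted p = 0.701). In the libraries low in astrocyte markers (n = 2 each) limma called 1 of the 16 higher and 4 lower, beside 4.78% and 3.1% of all genes. Vamp7 and Cpd were among the lower ones there (limma adjusted p = 0.0326 and 0.0335). M6pr was listed at 0 in every library, and whether its transcript was absent or its reads were not assigned was not tested. In the fit of all libraries, retromer and recycling genes had a median of -0.10 over 16 genes. They were led by Vps35 at -0.21 and Vps26b at -0.19 (limma adjusted p = 0.858 and 0.875). Over 13 genes of autophagy and innate sensing, which have been linked to AP1S3 in human skin cells, the median was -0.01, with Atg5 at -0.23 and Irf3 at 0.22 (both limma adjusted p = 0.875).

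Across all 111 related genes with a row, 108 were tested, 52 positive and 56 negative, with a median of -0.01. In the fit of all libraries limma called 0 of them, as it called 0 of all 18225 genes. The authors' deposited comparison had 0 of them at an adjusted p under 0.05. It had 0.384% of all its genes with an adjusted p higher and 0.368% lower at that threshold. In the libraries low in astrocyte markers limma called 4 of the related genes higher and 5 lower, beside 4.78% and 3.1% of all genes.

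The genes whose profile over the 7 libraries was nearest to that of Ap1s3 were Rab27b, Nxph3, Gprc5a, Lif, Etv4 and Ntn4. Nearness was the root mean square difference between log2(normalised count + 1) profiles, each centred on its own mean, over 13161 named genes with a mean of at least 50. It was 0.16 for Rab27b, 0.26 for Nxph3, 0.27 for Gprc5a, 0.28 for Lif, 0.28 for Etv4 and 0.31 for Ntn4, against a median of 1.07 over the genes compared. Rab27b, a GTPase of vesicle secretion, had 742, 1299 and 1238 normalised counts in siRNLTR12-int replicates 1 to 3, against 456, 194, 518 and 334 in control replicates 1 to 4. Like Ap1s3 it was lowest in control replicate 2 and lowest after the siRNA in replicate 1. Lif, a cytokine of the interleukin 6 family, had 75.8, 133 and 126 normalised counts in siRNLTR12-int replicates 1 to 3, against 52.6, 25.4, 39.6 and 33.7 in control replicates 1 to 4.

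The 5 other nearest genes besides Rab27b were lowest in control replicate 2 as well, with Etv4, an ETS transcription factor, at 514 and the secreted netrin Ntn4 at 336 normalised counts there. Since these genes were picked for following Ap1s3, their siRNA differences carry no test. Of the other AP-1 subunits, Ap1s1 was the nearest. It ranked 798 of 13161 at 0.86, Ap1m1 ranked 4009 at 1.01, Ap1b1 ranked 8527 at 1.13 and Ap1s2 ranked 9023 at 1.15.

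**Figure D5:**
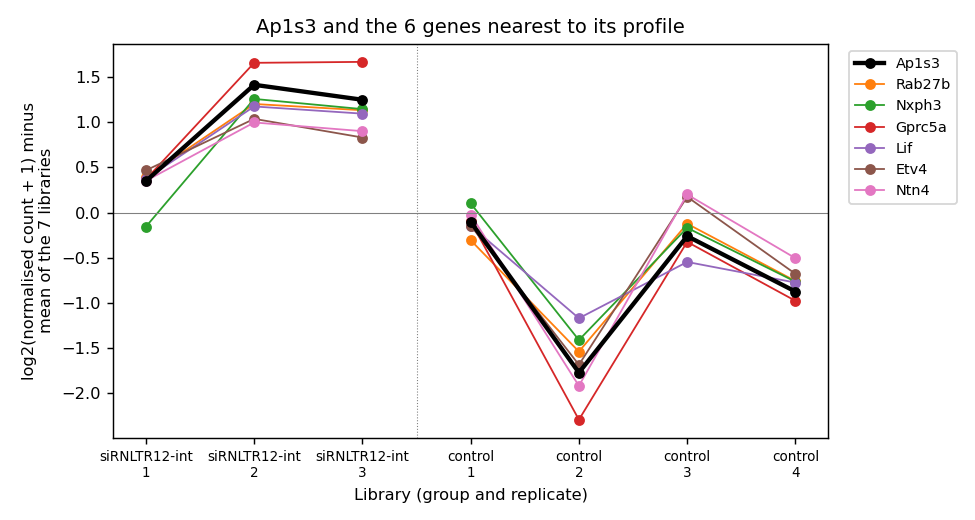
Log2(normalised count + 1) minus the mean of the 7 libraries (vertical axis) for Ap1s3 (black) and its 6 nearest genes, with siRNLTR12-int replicates 1 to 3 on the left and control replicates 1 to 4 on the right of the dotted line. All 7 genes are lowest in control replicate 2 and reach their highest values in siRNLTR12-int replicates 2 and 3, with lines drawn within a group only to guide the eye.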

How the data were processed

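Total RNA was depleted of ribosomal RNA and sequenced as paired-end directional libraries, per the labels' protocols. Salmon, DESeq2 and the build Rnor_6.0 are named in the submitters' processing notes, with no tool versions. The authors deposited normalised counts per gene, a signal scaled by 1 size factor per library. The authors also deposited a comparison with log2 fold changes and standard errors, a test score (fold change over its error), p-values and adjusted p-values. In each library 100% of nonzero values were multiples of the value of 1 read (tolerance 0.01 of a read), which gave back whole reads. Depth sets the precision of low genes such as Ap1m2.

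For the siRNA comparison, limma 3.58.1 (trend, two-sided) was run on log2(normalised count + 1) over 18225 genes with a mean of at least 10, in all 7 libraries, with Benjamini-Hochberg adjustment over all genes. This scale understates changes of low genes. The fit was tested on simulated data that had the same spread beyond counting error for every gene and no differences in cell makeup. How it performs on cultures that differ in makeup was not tested. Alternatives included edgeR 4.0.16 and DESeq2 1.42.0 on recovered reads, other pseudocounts, filters and scalings, left-out libraries, a replicate block and the astrocyte level. The members and the gene lists were chosen with earlier results of these data known. Named genes are the subunits, the 2 tested members of each related list with the smallest unadjusted limma p, the 6 nearest profiles and the markers Gfap, Aif1 and Mbp. One gene that this rule names is not reported here. Clathrin chains, Ap1g2, Ap3s1, Arf3, M6pr, Krt19 and Grhl2 were named after their values were seen. Compared levels are not divided by transcript length, so levels are compared between libraries and not between genes.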

Additional observations from a re-analysis of the deposited data

How the results depend on the processing

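Ap1s3 was higher after the siRNA under all 26 alternatives, with log2 differences from 1.42 to 2.08. Because Ap1s3 was chosen on this contrast, their shared sign carries no test. Ap1m1 and Ap1s1 kept a positive sign in all of their alternatives, and Ap1s1 passed the threshold in 1 of its 18, the limma fit of the libraries low in astrocyte markers, where DESeq2 also called it (adjusted p = 0.0389). The count for Ap1s3 includes DESeq2 fits with libraries left out that were run after seeing the data. Ap1s2 turned positive in 3 settings, at 0.18 in those libraries, 0.13 without control replicate 2 and 0.08 without siRNLTR12-int replicate 1, and ranged from -0.14 to 0.13 over the left-out libraries. Ap1b1 turned positive (0.0060) without siRNLTR12-int replicate 2, in a range from -0.15 to 0.0060. The number of genes called was 0 in the limma fit of all libraries, 1415 in the astrocyte-poor libraries, 141 with DESeq2, and 0 to 2 with limma when 1 library was left out. Upper-quartile scaling gave 485 higher and 671 lower genes at an unadjusted p under 0.05, against 606 and 543. The DESeq2 count of 141 became 552 without control replicate 1, 49 without control replicate 4, 520 without siRNLTR12-int replicate 1, 9 without siRNLTR12-int replicate 2, 15 without siRNLTR12-int replicate 3 and 1732 in the astrocyte-poor libraries alone, all chosen after seeing the data, and the cause was not tested. Deviations of same-numbered libraries correlated at 0.75 for number 1 and 0.63 for number 3 but at -0.19 for number 2, and the labels name no shared source, so the numbers were not taken to pair the libraries. The replicate block called 0 genes, with a log2 difference of 1.71 for Ap1s3. Ap1s3 rested on 50 to 483 reads, whereas the 0 to 33 reads of Ap1m2 allow no comparison.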

Other observations

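Aif1, a microglia and macrophage marker, had 160, 24.1 and 32.2 normalised counts in siRNLTR12-int replicates 1 to 3, against 140, 64.6, 41.4 and 53.2 in control replicates 1 to 4; it was highest in the 3 libraries rich in astrocyte transcripts, whichever siRNA they received.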
